A study of Mus musculus with 2 samples.

Results

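The 9 genes described here encode the killing and signalling products of cytotoxic lymphocytes: *Gzma*, *Gzmb*, *Gzmc*, *Gzmk*, *Prf1*, *Nkg7*, *Ccl5*, *Ifng* and *Xcl1*. They were taken as a list of names, without a rule on measured values, and all 9 were found among the 55357 genes of both count matrices. They were read in 4 kinds of cell barcode: CD8, Foxp3, other Cd3-positive and Ncr1-positive. The study is a droplet-based 3' single-cell RNA sequencing experiment on tumour-infiltrating immune cells, with CD45 in the library names, from subcutaneous MC38 tumours, which come from a mouse colon adenocarcinoma line. One library came from tumours grown in UEIS KI mice and 1 from tumours in UEIS LSL mice, both C57BL/6. UEIS is a micropeptide whose effect on the cGAS-STING pathway and on anti-tumour immunity is the subject of the series. The labels do not expand KI or LSL, name no driver or Cre, and give no age, sex or number of mice. Both groups carried the same tumour line, and no other treatment is named.

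Cytotoxic T cells and natural killer (NK) cells kill by releasing granules onto a target cell. Perforin opens the target's membrane, granzymes enter and cut proteins inside, and the granule membrane protein Nkg7 takes part in granule release. The same cells secrete interferon-gamma, which raises antigen presentation and chemokine production in macrophages and tumour cells, and the chemokines Ccl5 and Xcl1, which attract T cells and cross-presenting dendritic cells.

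With 1 library per group there was no test, and every 95% interval below describes counting error alone and says nothing of how mice vary. A barcode was Cd3-positive with at least 2 UMIs (unique molecular identifiers) over *Cd3d*, *Cd3e* and *Cd3g*, the invariant chains of the T cell receptor. It fell in the CD8 gate with a *Cd8a* or *Cd8b1* UMI and in the Foxp3 gate with a UMI of *Foxp3*, the regulatory T cell factor. Ncr1-positive barcodes had at least 1 UMI of *Ncr1*, an NK cell receptor, and were not Cd3-positive. The CD8 gate held 19 barcodes in UEIS KI and 52 in UEIS LSL, the Foxp3 gate 34 and 84, the other Cd3-positive gate 130 and 173, and the Ncr1-positive gate 27 and 33, out of 8685 kept barcodes in UEIS KI and 8646 in UEIS LSL. Barcodes with both CD8 and *Foxp3*, 2 in UEIS KI and 8 in UEIS LSL, were left out of the gates. *Ptprc*, the gene of CD45, was seen in 71.5 to 85.2% of gated barcodes in UEIS KI and 79.8 to 95.2% in UEIS LSL. Of 34 barcode sequences that occur in both libraries, 0 lay in a gate in UEIS KI and 1 in UEIS LSL. The libraries were of like size, 99404988 UMIs over 9734 barcodes in UEIS KI and 92764697 UMIs over 9527 barcodes in UEIS LSL.

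The T cell gates did not hold equal depth. The median barcode had 2653 UMIs in UEIS KI and 8370 in UEIS LSL in the CD8 gate, 6196.5 and 11656 in the Foxp3 gate, and 2341.5 and 7004 in the other Cd3-positive gate, against 6715 and 6458 in the Ncr1-positive gate. All 10 macrophage markers were detected in every gate of both libraries, so each gate also held macrophage RNA. Their summed level was 7205 CPM (UMI counts scaled to the gate's total) in UEIS KI against 9399 CPM in UEIS LSL in the CD8 gate, 7484 against 13197 in the Foxp3 gate, 8384 against 12447 in the other Cd3-positive gate and 6729 against 8393 in the Ncr1-positive gate. The part of depth and of macrophage RNA in the T cell results was not tested. T cell receptor complex UMIs were also fewer per barcode in UEIS KI, 14.6 against 23.6 in the CD8 gate, 11.4 against 15.2 in the Foxp3 gate and 9.45 against 12.5 in the other Cd3-positive gate. Ratios are therefore of CPM unless another scale is named. Taken per barcode instead, the median of all genes shifted by -0.78, -0.66, -0.87 and -0.14 on the log2 scale in the CD8, Foxp3, other Cd3-positive and Ncr1-positive gates. On the CPM scale the summed level of 8 T cell markers was higher in UEIS KI. It was 2901 against 2723 CPM in the CD8 gate, 1624 against 1351 in the Foxp3 gate and 2283 against 1636 in the other Cd3-positive gate.

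The 9 genes did not all move one way. In Ncr1-positive barcodes the granule genes *Gzmb*, *Gzmc* and *Prf1* were higher in UEIS KI, by 4.28-, 4.05- and 3.33-fold, while *Ccl5* and *Xcl1* were lower. The 3 UEIS KI barcodes with most *Gzmf*, another granzyme, held 214 of 288 *Gzmb*, 901 of 1615 *Gzmc* and 101 of 184 *Prf1* UMIs. A UEIS LSL barcode with 432 *Gzmc* and 4 *Ncr1* UMIs was Cd3-positive and so not counted in this gate. In the CD8 and other Cd3-positive gates *Ifng* was lower in UEIS KI, and 1 UEIS LSL barcode held 60.9% of the *Ifng* UMIs in that library's CD8 gate. A gene counted as higher or lower with a ratio of at least 1.5-fold and a counting interval on that side of 1, among genes with at least 20 UMIs over both libraries in the gate, which are called measured. In the Ncr1-positive gate 3 of the 8 measured genes were higher and 2 lower, beside 4.31% and 7.61% of all measured genes. The CD8 gate had 2 higher and 1 lower of 5, beside 3.37% and 4.09%. The Foxp3 gate had 1 higher and 1 lower of 3, beside 4.83% and 4.15%. The other Cd3-positive gate had 0 higher and 2 lower of 7, beside 6.18% and 3.88%. *Gzmk* was measured in no gate, *Gzma* only in the Ncr1-positive gate, and *Gzmc*, *Prf1*, *Ifng* and *Xcl1* were each below this limit in at least 1 T cell gate.

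**Figure D1:**
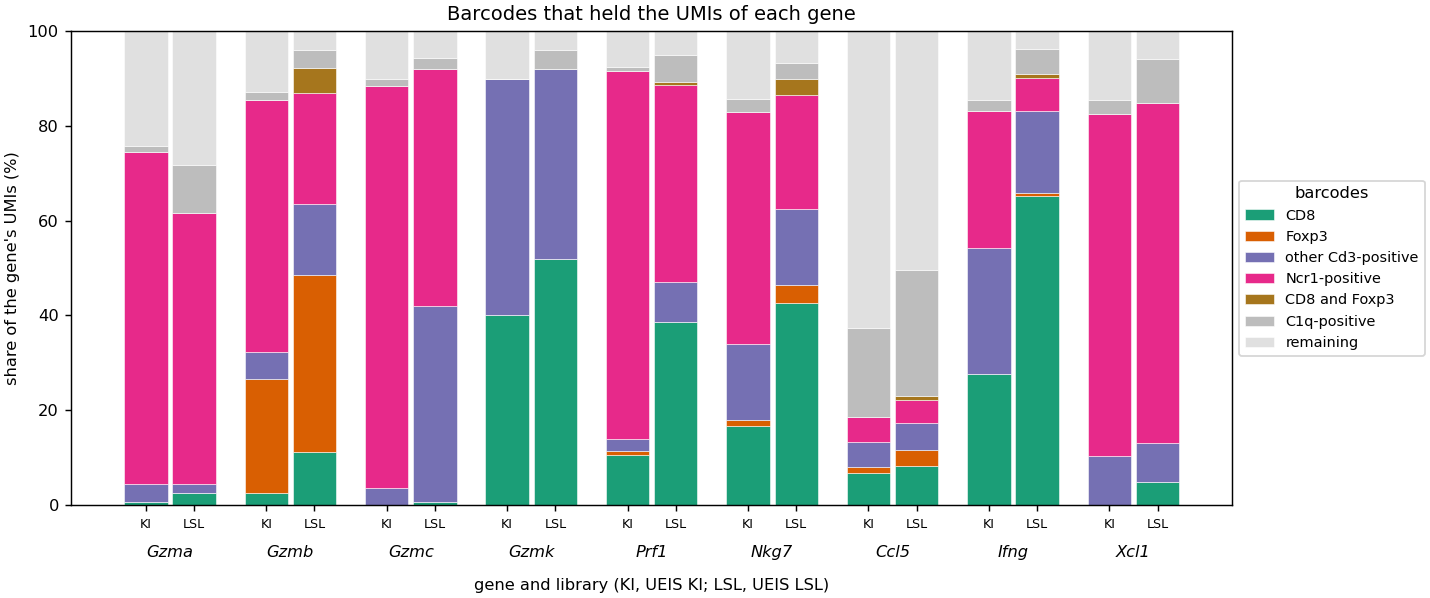
Share of each gene's UMIs (%) held by each kind of barcode, UEIS KI left of UEIS LSL for each gene. *Gzma*, *Gzmc*, *Prf1* and *Xcl1* lay mostly in Ncr1-positive barcodes in UEIS KI, while the 4 gates held 18.6% of *Ccl5* in UEIS KI and 22.1% in UEIS LSL.

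Most UMIs of 8 of the 9 genes lay inside the 4 gates, between 74.5% (*Gzma*) and 91.6% (*Prf1*) in UEIS KI and between 61.7% (*Gzma*) and 92.1% (*Gzmc*) in UEIS LSL. *Ccl5* was the exception. The background was low for the others, and whether it came from free RNA was not tested. It was read in C1q-positive barcodes, which have at least 10 UMIs of *C1qa*, *C1qb* and *C1qc* and none of the *Cd3* genes or *Ncr1*. The share with a UMI there was 0 to 0.452% in UEIS KI (5533 barcodes, median 9993 UMIs) and 0.0195 to 0.332% in UEIS LSL (5117 barcodes, median 9236 UMIs). *Ccl5* was seen there in 2.91% and 7.09%. Shares in the gates are read against these levels.

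**Figure D2:**
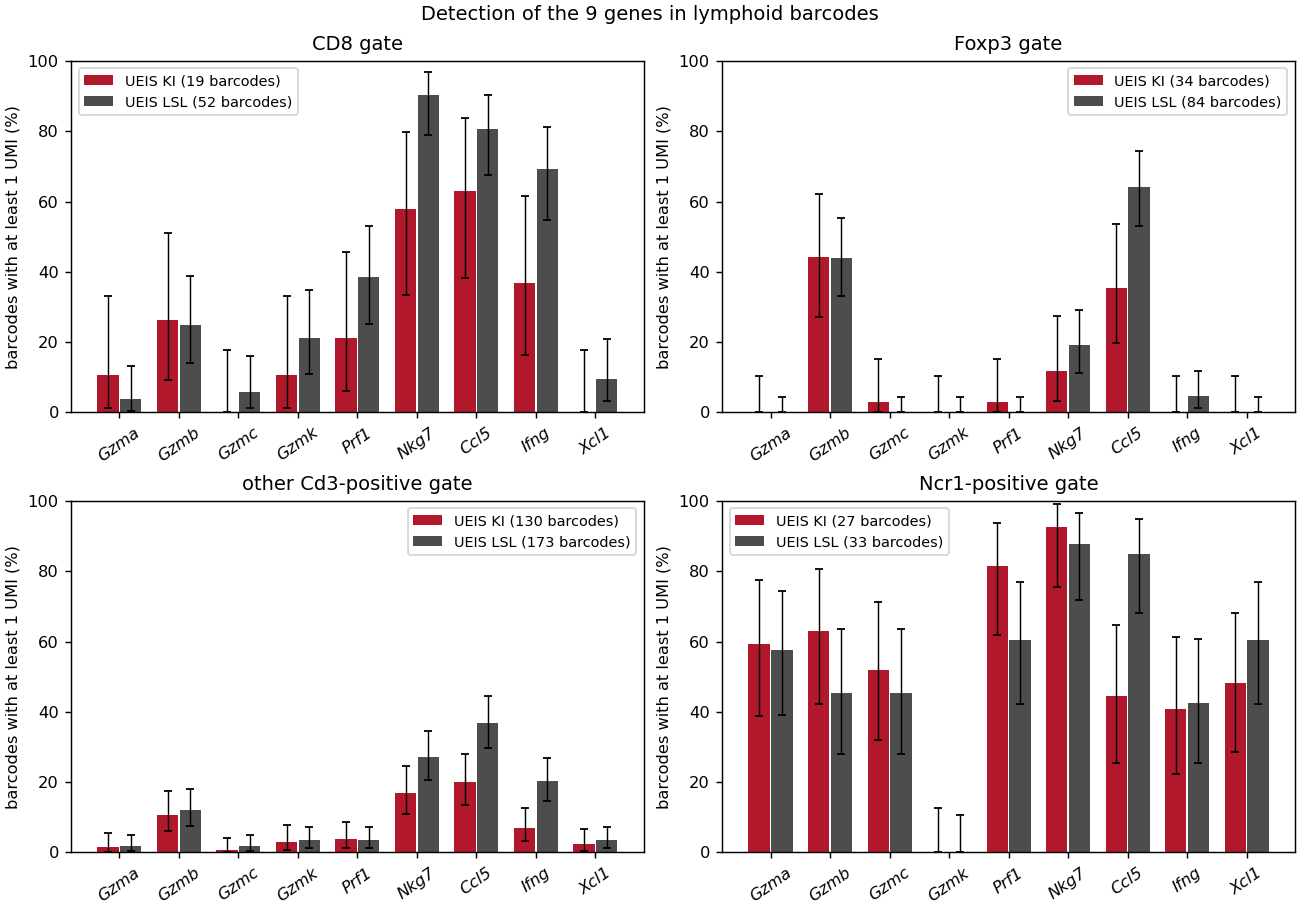
Share of barcodes with at least 1 UMI of each gene (%) in the 4 gates, UEIS KI left of UEIS LSL, with exact Clopper-Pearson 95% intervals. *Ifng*, *Nkg7* and *Ccl5* were seen in fewer CD8 barcodes of UEIS KI, *Gzmb* in 44.1% of Foxp3 barcodes of UEIS KI and 44.0% of UEIS LSL.

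The granzymes come from 2 places in the mouse genome. *Gzma* (ENSMUSG00000023132, chromosome 13, 113093825 to 113100981) and *Gzmk* (ENSMUSG00000042385, chromosome 13, 113171608 to 113225908) are neighbours, and *Gzmb* (ENSMUSG00000015437, chromosome 14, 56258838 to 56262260) and *Gzmc* (ENSMUSG00000079186, chromosome 14, 56231441 to 56234656) lie in a cluster with *Gzmf*, *Gzmn*, *Gzmg*, *Gzmd* and *Gzme*, which runs down to 56117626. All are protein-coding genes on the minus strand (GRCm38, GENCODE vM21). The other members lie apart: *Prf1* (chromosome 10, 61297833 to 61304680) and *Ifng* (chromosome 10, 118441046 to 118445892) on the plus strand, *Nkg7* on chromosome 7, *Ccl5* on chromosome 11 and *Xcl1* on chromosome 1. The promoters of *Gzmc*, *Gzmf* and *Gzmb* are shown because these neighbours in 1 cluster were all high in Ncr1-positive barcodes of UEIS KI, while the third was also seen in Foxp3 barcodes of both libraries. Each is 300 bases around the RefSeq start, most of them upstream (GRCm38.p6, minus strand), at chr14:56234608-56234907, chr14:56211358-56211657 and chr14:56262285-56262584. Capitals mark matches to TGTGGT (Runx), GTGTGA (T-box) and TGANTCA (AP-1), each searched on both strands.

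Gzmc: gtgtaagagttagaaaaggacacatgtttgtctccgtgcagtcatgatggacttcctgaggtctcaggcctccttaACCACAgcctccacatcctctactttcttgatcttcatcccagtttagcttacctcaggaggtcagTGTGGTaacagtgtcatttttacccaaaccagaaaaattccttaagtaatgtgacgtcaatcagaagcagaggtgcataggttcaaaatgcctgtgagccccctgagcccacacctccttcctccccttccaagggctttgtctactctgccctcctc

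Gzmf: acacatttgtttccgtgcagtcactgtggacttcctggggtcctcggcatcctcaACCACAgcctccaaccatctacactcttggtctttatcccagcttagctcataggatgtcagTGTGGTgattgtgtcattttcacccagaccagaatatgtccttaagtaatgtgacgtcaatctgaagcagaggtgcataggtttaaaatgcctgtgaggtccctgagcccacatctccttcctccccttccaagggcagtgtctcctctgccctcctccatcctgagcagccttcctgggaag

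Gzmb: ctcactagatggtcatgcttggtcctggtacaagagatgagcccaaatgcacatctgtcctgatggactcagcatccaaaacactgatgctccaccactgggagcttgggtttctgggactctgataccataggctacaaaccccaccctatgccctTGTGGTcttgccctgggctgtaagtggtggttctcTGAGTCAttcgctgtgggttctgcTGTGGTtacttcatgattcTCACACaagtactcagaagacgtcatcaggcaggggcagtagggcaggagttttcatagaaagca

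The *Gzmc* promoter matched that of *Gzmf* at 73.5% of aligned positions, that of *Gzmg* at 75.9%, and those of *Gzmd* and *Gzme* at 82.7% each, against 45.8% for *Gzmb*. *Gzmc*, *Gzmd*, *Gzme*, *Gzmf* and *Gzmg* each held 2 Runx matches and no T-box or AP-1 match. *Gzmb* held 2 Runx matches, 1 T-box match and 1 AP-1 match. Among 27025 mouse promoters of this length 16.9% held the Runx letters, 14.4% the T-box letters and 7.93% the AP-1 letters, so each is common. Promoter sequences were found for 8 of the 9 members. A match of letters is a description and not a site. Reads could be shared between some of these paralogs: of the 50-base windows in the last 500 bases of the transcripts, 20.6% of *Gzmd*, 18.2% of *Gzme*, 14.4% of *Gzmg* and 7.10% of *Gzmf* occurred also in another gene of the cluster, but 0% of *Gzmb* and *Gzmc*. The split between *Gzmd*, *Gzme*, *Gzmf* and *Gzmg* is thus uncertain, while those of *Gzmb* and *Gzmc* are not touched by such windows.

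*Gzmc* encodes a granzyme that is best known from strongly activated mouse killer cells. It had 1615 UMIs in the 27 Ncr1-positive barcodes of UEIS KI and 527 in the 33 of UEIS LSL, or 6940 CPM (6605 to 7286) against 1712 CPM (1569 to 1865). The log2 ratio was 2.02 (1.88 to 2.16). It was seen in a like share of barcodes, 14 of 27 in UEIS KI (51.9%) and 15 of 33 in UEIS LSL (45.5%). The difference lay in the amount per positive barcode, with a median of 79.5 UMIs and a highest of 524 in UEIS KI against a median of 5 and a highest of 179 in UEIS LSL. At least 10 UMIs were held by 10 barcodes in UEIS KI and 7 in UEIS LSL, so both libraries had high barcodes and their ranges overlapped. Over 10 alternatives the log2 ratio ran from 0.86, with at least 2 *Ncr1* UMIs asked for, to 4.02, without the 5 highest barcodes of each library, and it was called in all 10. Outside this gate *Gzmc* was scarce: 0 of 19 and 3 of 52 CD8 barcodes, 1 of 34 and 0 of 84 Foxp3 barcodes, in UEIS KI and UEIS LSL. A count of 0 allows a share of up to 15.8% in the CD8 gate of UEIS KI and 3.57% in the Foxp3 gate of UEIS LSL. In the other Cd3-positive gate it was lower in UEIS KI, with 66 UMIs against 434 and a log2 ratio of -1.39, but all 66 lay in 1 barcode and 432 of the 434 in 1 barcode. Both barcodes carried *Ncr1* UMIs, 2 in UEIS KI and 4 in UEIS LSL, and no UMI of *Cd3e* or *Trac*. As Cd3-positive barcodes they were not counted in the Ncr1-positive gate, where the highest UEIS LSL barcode held 179 *Gzmc* UMIs. The ratio of that gate with these barcodes counted in it was not worked out.

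The neighbours of *Gzmc* in the cluster, which had been listed as granule genes beside the 9, had most of their UMIs in UEIS KI. *Gzmf* had 1678 UMIs in the Ncr1-positive gate of UEIS KI and 0 in UEIS LSL. With the 0 set to a floor of 3 UMIs over the gate it was 740-fold higher, and the counting interval began at 601-fold. *Gzmg* had 714 and 0 UMIs, 315-fold on the same floor, with an interval from 255-fold. *Gzmd* had 892 and 9 UMIs, a ratio of 131 (68.7 to 288), and *Gzme* 544 and 3, a ratio of 240 (81.6 to 1166). These values come from few barcodes. *Gzmd*, *Gzme*, *Gzmf* and *Gzmg* were positive in 6, 5, 4 and 4 barcodes of UEIS KI, and the 3 highest barcodes of each gene held 97.4%, 98.9%, 96.3% and 99.9% of its UMIs. The 3 UEIS KI barcodes with most *Gzmf* held 1616 *Gzmf*, 901 *Gzmc*, 214 *Gzmb* and 101 *Prf1* UMIs among 33700 in all. They held 0 of *Ccl5*. Without the 3 highest barcodes 62 *Gzmf* and 1 *Gzmg* UMIs remained. *Gzmf* was also seen in 26 of the 5533 C1q-positive barcodes of UEIS KI, with at most 3 UMIs each, and in 1 of 5117 of UEIS LSL.

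*Gzmb* encodes the granzyme that cleaves after aspartate and activates caspases. In Ncr1-positive barcodes it had 288 UMIs in UEIS KI and 89 in UEIS LSL, 1238 CPM (1099 to 1389) against 289 CPM (232 to 356), 4.28-fold higher (3.36 to 5.49). It was positive in 17 of 27 barcodes (63.0%) and 15 of 33 (45.5%). The median positive barcode did not follow the sum, with 4 UMIs in UEIS KI and 5 in UEIS LSL. A single UEIS KI barcode held 164 of the 288, and it also held 251 *Gzmc* and 36 *Prf1* UMIs. Without the highest barcode of each library the log2 ratio was 1.27, and with every barcode thinned to 1000 UMIs it was 0.23 and no longer called. The share seen after thinning ran the other way, 18.5% in UEIS KI and 36.4% in UEIS LSL, so no order of detection is read from it.

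In Foxp3 barcodes *Gzmb* was the leading granzyme, and it was seen equally often in both libraries, in 15 of 34 (44.1%, 27.2 to 62.1) and 37 of 84 (44.0%, 33.2 to 55.3). The median positive barcode held 2 UMIs in each. The summed level was higher in UEIS KI, 438 CPM against 120 CPM, a log2 ratio of 1.87 (1.51 to 2.22), but 1 UEIS KI barcode held 90 of the 130 UMIs. Without the highest barcode of each library the ratio was 0.41 and not called. In the CD8 gate *Gzmb* was seen in 5 of 19 (26.3%) and 13 of 52 barcodes (25.0%), with 130 CPM (71.2 to 218) in UEIS KI and 84.2 CPM (60.7 to 114) in UEIS LSL and a ratio not called. In the other Cd3-positive gate the shares were 10.8% and 12.1%, and the levels 51.4 and 37.6 CPM. In both libraries the *Gzmb* level ran from the Ncr1-positive gate through the Foxp3 and CD8 gates to the other Cd3-positive gate. The intervals of the CD8 and other Cd3-positive gates overlapped in UEIS KI, and those of the Foxp3 and CD8 gates in UEIS LSL. The Foxp3 level of UEIS KI includes the barcode with 90 of the 130 UMIs, and the order without it was not worked out.

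*Gzma*, a granzyme that cleaves after basic residues, was a gene of the Ncr1-positive gate. It was seen there in 16 of 27 barcodes of UEIS KI (59.3%) and 19 of 33 of UEIS LSL (57.6%), with 220 and 211 UMIs, 945 CPM (825 to 1079) and 686 CPM (596 to 785). The log2 ratio of 0.46 (0.18 to 0.74) stayed below the 1.5-fold limit. Positive barcodes held a median of 9.5 UMIs in UEIS KI and 8 in UEIS LSL. In the T cell gates it was near absent, with 2 of 19 and 2 of 52 CD8 barcodes, 0 of 34 and 0 of 84 Foxp3 barcodes, and 2 of 130 and 3 of 173 other Cd3-positive barcodes. *Gzmk*, the granzyme of memory-like CD8 T cells, showed the opposite distribution. It was seen in 2 of 19 CD8 barcodes of UEIS KI (10.5%, 1.30 to 33.1) and 11 of 52 of UEIS LSL (21.2%, 11.1 to 34.7), in 4 of 130 and 6 of 173 other Cd3-positive barcodes, and in no Ncr1-positive barcode, where 0 allows a share of up to 11.1% in UEIS KI and 9.09% in UEIS LSL. Its 10 UMIs in the whole UEIS KI library and 25 in UEIS LSL set the limit of what could be compared.

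*Prf1*, the pore-forming protein of the granule, was the third granule gene higher in the Ncr1-positive gate, at 791 CPM (681 to 913) in UEIS KI and 237 CPM (186 to 298) in UEIS LSL, a log2 ratio of 1.74 (1.34 to 2.15). It was seen in 22 of 27 barcodes (81.5%) and 20 of 33 (60.6%). The median positive barcode held 3 UMIs in both, while the highest held 57 in UEIS KI and 8 in UEIS LSL. Without the 5 highest barcodes of each library the log2 ratio was 1.05 and still called. In the CD8 gate *Prf1* was seen in fewer barcodes of UEIS KI, 4 of 19 (21.1%, 6.05 to 45.6) against 20 of 52 (38.5%, 25.3 to 53.0), but at a higher CPM, 232 against 136, a log2 ratio of 0.77 (0.05 to 1.45). The ratio turned to -0.19 with called doublets kept and to -0.41 without the 5 highest barcodes. The median of all measured genes in this gate was 0.01 and -0.56 under these 2 settings. The thinned shares, 16.7% in UEIS KI and 9.62% in UEIS LSL, ran against the unthinned ones, so no order of detection is read from them. Foxp3 barcodes had *Prf1* in 1 of 34 and 0 of 84, and other Cd3-positive barcodes in 5 of 130 and 6 of 173.

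*Nkg7*, the granule membrane protein, was seen in the most Ncr1-positive barcodes of the 9 genes in both libraries. It was found in 25 of 27 Ncr1-positive barcodes of UEIS KI (92.6%) and 29 of 33 of UEIS LSL (87.9%), with a median of 7 UMIs per positive barcode in each and 778 against 783 CPM. The log2 ratio was -0.01 (-0.30 to 0.27), so the gate's *Nkg7* level differed by less than the counting error. In the CD8 gate *Nkg7* was seen in 11 of 19 barcodes of UEIS KI (57.9%, 33.5 to 79.7) and 47 of 52 of UEIS LSL (90.4%, 79.0 to 96.8), and positive barcodes held a median of 3 and 8 UMIs. The CPM ratio there was -0.57 on the log2 scale (-0.98 to -0.18), just short of the 1.5-fold limit. Under 12 alternatives it kept its sign, between -1.99 and -0.25, and was called lower in 10 of them. Some of these settings shift all genes of the gate down. The median of all measured genes was -0.78 per barcode, -0.56 without the 5 highest barcodes and -0.24 without the highest. Thinned to 1000 UMIs the shares were 33.3% in 18 barcodes of UEIS KI and 55.8% in 52 of UEIS LSL, with 1 UEIS KI barcode too shallow to enter. In the Foxp3 and other Cd3-positive gates *Nkg7* was seen in 11.8% and 16.9% of barcodes in UEIS KI and in 19.0% and 27.2% in UEIS LSL, with no ratio called.

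**Figure D3:**
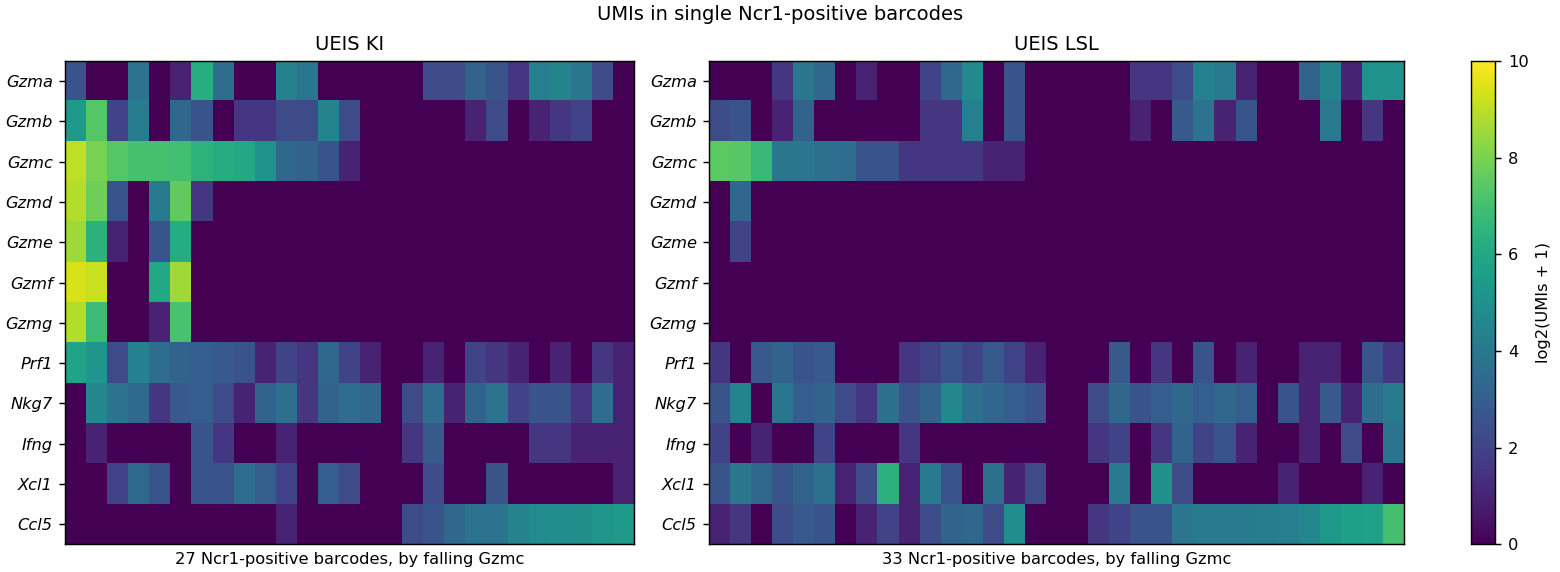
UMIs (log2 of UMIs plus 1) of 12 genes in each of the 27 UEIS KI and 33 UEIS LSL Ncr1-positive barcodes, ordered by falling *Gzmc* and, where it is 0, by rising *Ccl5*. The *Gzmd* to *Gzmg* block lies in a few UEIS KI barcodes, and *Ccl5* is at 0 in the 10 UEIS KI barcodes with at least 10 *Gzmc* UMIs.

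*Ccl5*, a chemokine for T cells and monocytes that is stored by memory and NK cells, went the other way from the granule genes in Ncr1-positive barcodes. It was seen in 12 of 27 barcodes of UEIS KI (44.4%, 25.5 to 64.7) and 28 of 33 of UEIS LSL (84.8%, 68.1 to 94.9), and its level was 984 CPM (861 to 1120) against 1582 CPM (1445 to 1729), a log2 ratio of -0.69 (-0.92 to -0.46). Positive barcodes held a median of 17 UMIs in UEIS KI and 7 in UEIS LSL, so fewer barcodes had *Ccl5* in UEIS KI, with more UMIs in each. Thinned to 1000 UMIs the shares were 37.0% and 51.5%, while the thinned ratio turned to 0.78, and without the highest barcode it was -0.55 and not called. In a split made after the values were seen, barcodes rich in *Gzmc* were set apart. Of the 10 UEIS KI barcodes with at least 10 *Gzmc* UMIs none had a *Ccl5* UMI, which allows a share of up to 30.0%. Of the 7 such barcodes of UEIS LSL 5 had *Ccl5* (71.4%, 29.0 to 96.3). Among barcodes with fewer *Gzmc* UMIs the shares were 12 of 17 in UEIS KI (70.6%, 44.0 to 89.7) and 23 of 26 in UEIS LSL (88.5%, 69.8 to 97.6). The *Gzmc*-rich barcodes were the deeper ones in UEIS KI, with a median of 11435.5 UMIs against 5981 in UEIS LSL, and carried more C1q RNA, 4227 against 1166 CPM, and the part of either was not tested. All 10 also had *Prf1*, and 9 had *Nkg7*. *Xcl1* was seen in 7 of the 10 and in all 7 of UEIS LSL.

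In the T cell gates *Ccl5* was seen in fewer barcodes of UEIS KI each time: 12 of 19 (63.2%) against 42 of 52 (80.8%) in the CD8 gate, 12 of 34 (35.3%) against 54 of 84 (64.3%) in the Foxp3 gate, and 26 of 130 against 64 of 173 (37.0%) in the other Cd3-positive gate. The levels did not all follow. The CD8 level was higher in UEIS KI, 2696 CPM (2395 to 3025) against 1725 CPM (1611 to 1844), a log2 ratio of 0.64 (0.45 to 0.84), with 130 of 290 UMIs in 1 UEIS KI barcode that also held 86 C1q UMIs. Without the highest barcode the ratio was 0.10 and not called, and it was -0.12 in barcodes with little C1q RNA. The Foxp3 level was lower in UEIS KI, 185 against 280 CPM, a log2 ratio of -0.60 (-1.04 to -0.18), which turned to 1.04 with Cd3-positive barcodes taken from 1 UMI. The other Cd3-positive level did not differ beyond counting error, 366 against 401 CPM. Thinned to 1000 UMIs, *Ccl5* was seen in 9 of 18 CD8 barcodes of UEIS KI and 28 of 52 of UEIS LSL, in 6 of 32 and 23 of 84 Foxp3 barcodes, and in 16 of 125 and 32 of 166 other Cd3-positive barcodes.

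The largest share of *Ccl5* among the kinds of barcode looked at lay outside the gates, in a subset chosen after the values were seen. Barcodes outside the gates and the C1q-positive class with UMIs of both *Ccr7* and *Fscn1*, genes of mature dendritic cells, held 2233 of 4285 *Ccl5* UMIs in UEIS KI (52.1%) and 4026 of 10359 in UEIS LSL (38.9%). They numbered 51 and 86, were positive in 46 (90.2%) and 74 (86.0%), and held 48.5 and 54.4 UMIs per positive barcode. Their level was 7254 CPM in UEIS KI and 6681 CPM in UEIS LSL, a log2 ratio of 0.12 (0.04 to 0.19), well under the 1.5-fold limit. In C1q-positive barcodes *Ccl5* was lower in UEIS KI, in 161 of 5533 barcodes (2.91%) against 363 of 5117 (7.09%), with 806 against 2756 UMIs and a log2 ratio of -2.01 (-2.12 to -1.89). There, 5 of the 7 measured genes were lower in UEIS KI and 0 higher, beside 6.39% and 4.78% of all genes measured in these barcodes. *Ifng* was among them, with 2 UMIs in UEIS KI and 38 in UEIS LSL, of which 27 lay in 1 barcode. For *Gzma* the 2 highest UEIS LSL barcodes held 15 and 14 of 37 UMIs, and for *Xcl1* 12 and 10 of 31. For *Nkg7* the highest held 11 of 34. These calls thus rest in large part on few barcodes. The remaining barcodes, outside the gates and the C1q-positive class, include those with *Ccr7* and *Fscn1*. Of the 8 genes measured there 2 were higher in UEIS KI, *Gzmb* (69 against 15 UMIs) and *Gzmc* (190 against 59). Another 2 were lower, *Ccl5* and *Ifng*, beside 3.92% higher and 10.4% lower of all measured genes. The *Ccr7*- and *Fscn1*-positive barcodes held 2233 of the 2684 *Ccl5* UMIs in UEIS KI and 4026 of the 5222 in UEIS LSL. The 3 highest UEIS KI barcodes of each gene held 37 of the 69 *Gzmb* and 150 of the 190 *Gzmc* UMIs. In UEIS LSL 1 barcode held 41 of the 59 *Gzmc* UMIs.

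*Xcl1*, the ligand of the dendritic cell receptor Xcr1, lay mostly in Ncr1-positive barcodes, which held 72.2% of its UMIs in UEIS KI and 71.6% in UEIS LSL. It was seen in 13 of 27 barcodes of UEIS KI (48.1%, 28.7 to 68.1) and 20 of 33 of UEIS LSL (60.6%, 42.1 to 77.1). The level was lower in UEIS KI, 301 CPM (234 to 380) against 764 CPM (669 to 868), a log2 ratio of -1.34 (-1.75 to -0.95). The median positive barcode held 5 UMIs in both, and 1 UEIS LSL barcode held 84 of 235, along with 201 C1q UMIs. Without the highest barcode of each library the ratio was -1.02 and still called, and without the 5 highest it was -0.51 and not called. Thinned shares were 14.8% and 36.4%. *Xcl1* was seen in 0 of 19 CD8 barcodes of UEIS KI, which allows up to 15.8%, and 5 of 52 of UEIS LSL, in no Foxp3 barcode, and in 3 of 130 and 6 of 173 other Cd3-positive barcodes.

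*Ifng*, the cytokine that activates macrophages, was lower in UEIS KI in the CD8 and other Cd3-positive gates, and its whole-library total was 83 UMIs in UEIS KI and 730 in UEIS LSL. In the CD8 gate it was seen in 7 of 19 barcodes of UEIS KI (36.8%, 16.3 to 61.6) and 36 of 52 of UEIS LSL (69.2%, 54.9 to 81.3). Positive barcodes held 1 to 7 UMIs with a median of 3 in UEIS KI, and 1 to 290 with a median of 4 in UEIS LSL, so the ranges overlapped. The level was 214 CPM (136 to 321) against 955 CPM (871 to 1044), a log2 ratio of -2.16 (-2.83 to -1.56). One UEIS LSL barcode held 290 of the 476 UMIs, and the next held 34. It had 45 *Nkg7*, 61 *Ccl4*, 3 *Cd4* and 1 *Cd8b1* UMIs and none of *Cd8a*, *Prf1* or *Ccl5*, so its place in the CD8 gate rests on 1 UMI. Without it the UEIS LSL level was 385 CPM and the log2 ratio -0.85 (-1.54 to -0.22), still called. With at least 2 UMIs of *Cd8a* and *Cd8b1* asked for, which takes that barcode out, the ratio was -0.58 and not called. The same setting puts it in the other Cd3-positive gate. Thinned to 1000 UMIs, *Ifng* was seen in 4 of 18 barcodes of UEIS KI (22.2%, 6.41 to 47.6) and 14 of 52 of UEIS LSL (26.9%, 15.6 to 41.0), a difference not detectable at this depth.

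**Figure D4:**
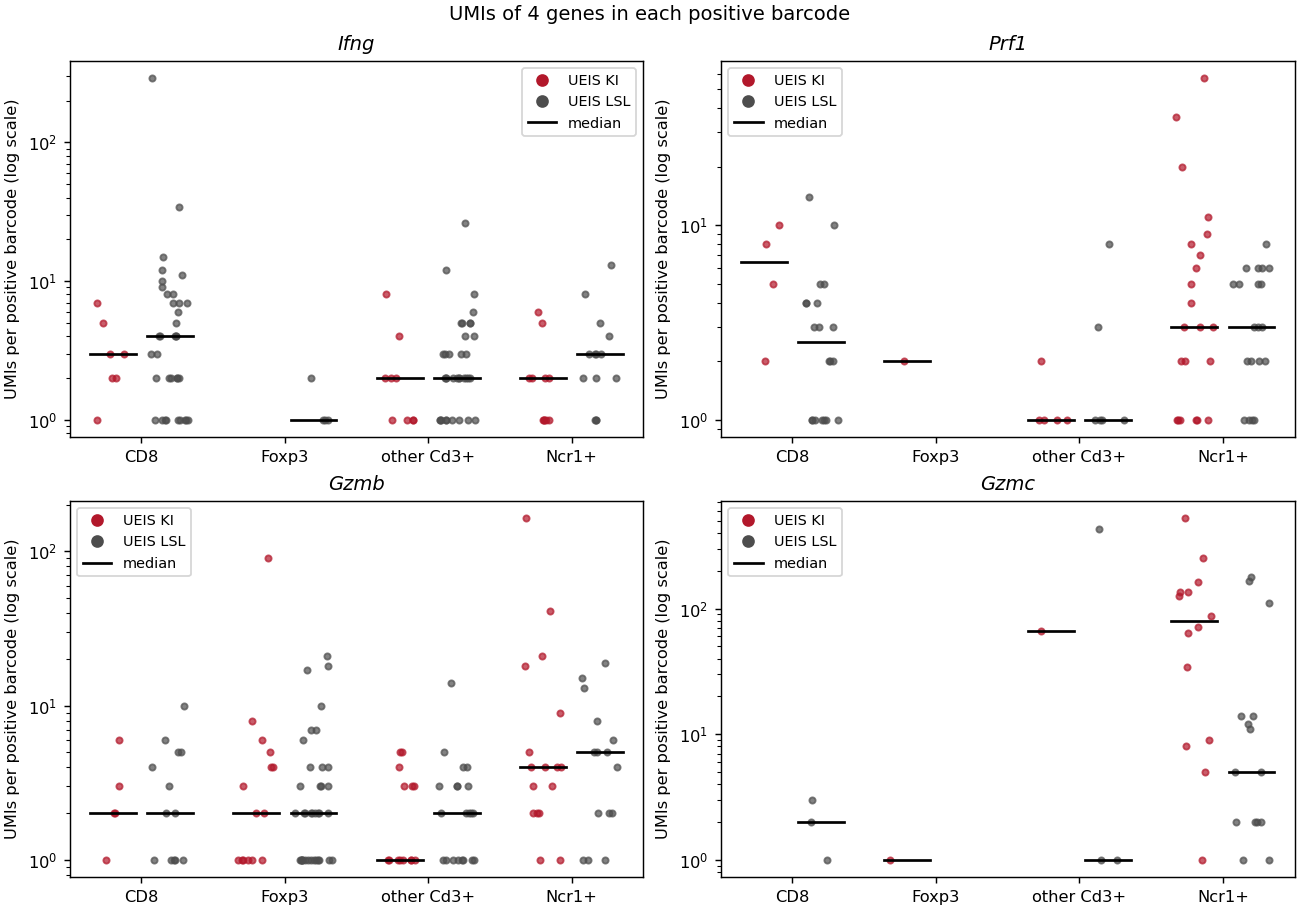
UMIs per positive barcode (log scale) of *Ifng*, *Prf1*, *Gzmb* and *Gzmc* in the 4 gates, UEIS KI left of UEIS LSL, with the median as a black line. A few barcodes stand apart, among them 1 UEIS LSL CD8 barcode with 290 *Ifng* UMIs, 1 UEIS KI Foxp3 barcode with 90 *Gzmb* UMIs and 1 UEIS LSL other Cd3-positive barcode with 432 *Gzmc* UMIs.

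In the other Cd3-positive gate *Ifng* was seen in 9 of 130 barcodes of UEIS KI (6.92%, 3.21 to 12.7) and 35 of 173 of UEIS LSL (20.2%), with 36.4 against 83.1 CPM and a log2 ratio of -1.19 (-1.91 to -0.53). Positive barcodes held a median of 2 UMIs in each library. The highest held 8 of 22 UMIs in UEIS KI and 26 of 126 in UEIS LSL. The latter is the barcode with 432 *Gzmc* and 4 *Ncr1* UMIs and no UMI of *Cd3e* or *Trac*. Among those with a *Cd4* UMI and no *Trdc*, the gamma-delta receptor constant gene, 2 of 20 in UEIS KI and 10 of 32 in UEIS LSL had *Ifng*. Among those with *Trdc* 1 of 38 and 4 of 33 had it, and among the rest 6 of 72 and 21 of 108. All 3 shares were lower in UEIS KI. Thinned to 1000 UMIs *Ifng* was seen in 6 of 125 and 16 of 166 barcodes of the whole gate, and the thinned ratio of -0.47 was not called. In Ncr1-positive barcodes *Ifng* was seen in 11 of 27 (40.7%) and 14 of 33 (42.4%), with 103 CPM (66.1 to 153) in UEIS KI and 166 CPM (123 to 218) in UEIS LSL, a ratio of -0.68 (-1.45 to 0.04) that was not called. *Ifng* was at 0 in the 34 Foxp3 barcodes of UEIS KI, a limit of 8.82%, and present in 4 of 84 of UEIS LSL. In UEIS LSL the CD8 gate had the highest *Ifng* level, above the Ncr1-positive, other Cd3-positive and Foxp3 gates. In UEIS KI the CD8 and Ncr1-positive gates led, and their intervals overlapped.

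**Figure D5:**
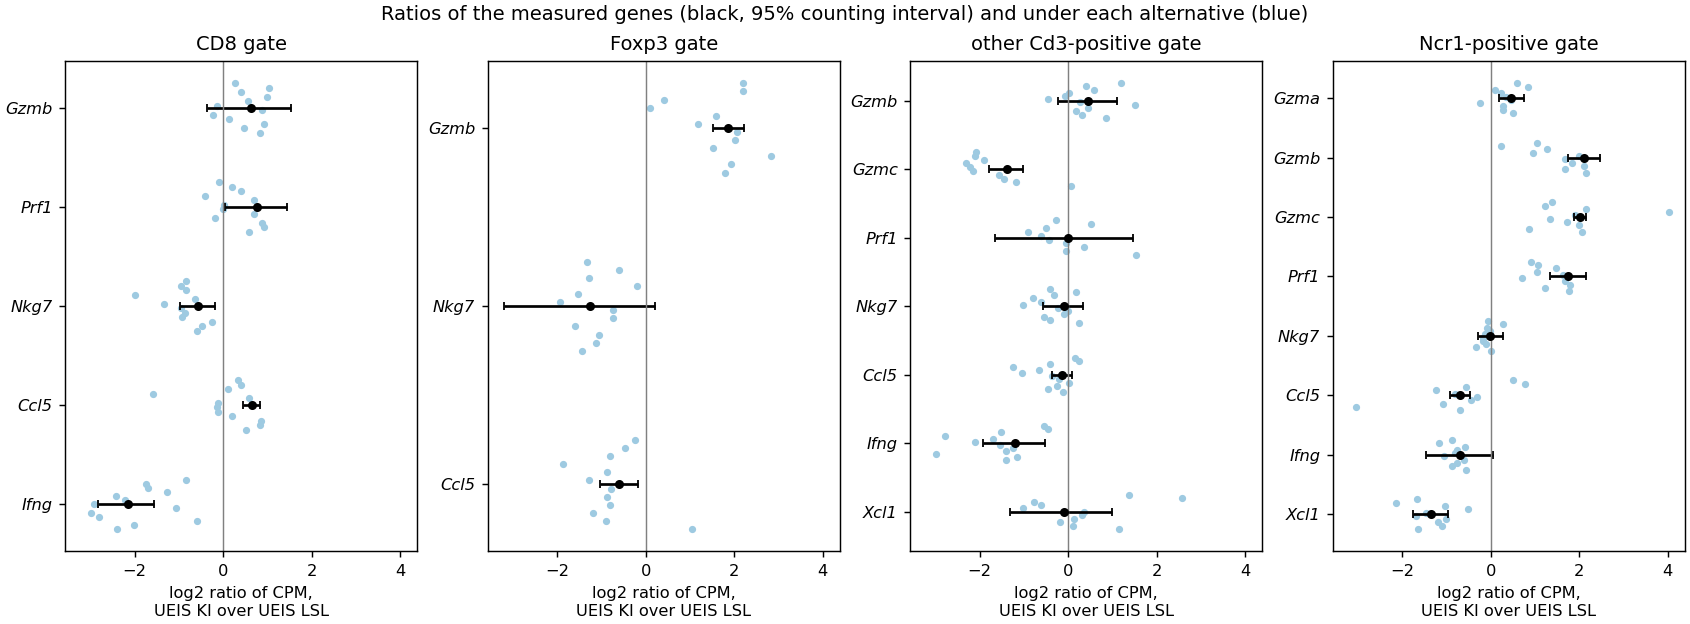
Log2 ratio of CPM, UEIS KI over UEIS LSL, for each measured gene in the 4 gates (black, with the 95% counting interval) and under each alternative setting (blue). *Gzmc* and *Prf1* in the Ncr1-positive gate and *Ifng* in the CD8 gate kept their sign in the alternatives drawn, while *Ccl5* and *Prf1* in the CD8 gate lay on both sides of 0.

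How many of the 9 genes a barcode held also differed. At least 3 were seen in 8 of 19 CD8 barcodes of UEIS KI (42.1%) and 41 of 52 of UEIS LSL (78.8%), and in 25 of 27 (92.6%) and 30 of 33 (90.9%) Ncr1-positive barcodes. The median CD8 barcode held 2 of the genes in UEIS KI and 4 in UEIS LSL, and these counts are not corrected for the depth given above. Of the *Ifng*-positive CD8 barcodes, 6 of 7 in UEIS KI and 35 of 36 in UEIS LSL also had *Nkg7*, and 2 of 7 and 19 of 36 had *Prf1*. None of the 9 was seen in 89 of 130 other Cd3-positive barcodes of UEIS KI (68.5%) and 80 of 173 of UEIS LSL (46.2%).

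Of 20 listed granule and killing genes 13 were measured in Ncr1-positive barcodes, of which 5 were higher in UEIS KI, *Gzmd*, *Gzme*, *Gzmf*, *Gzmg* and the serpin *Serpinb6b* (236 against 114 CPM), and 2 lower, *Ctsc* and *Fgl2*, beside 4.31% and 7.61% of all measured genes. *Ctsc* encodes cathepsin C, which activates pro-granzymes, and it was lower in the CD8 gate (790 against 1229 CPM), the other Cd3-positive gate (825 against 1281 CPM) and the Ncr1-positive gate (481 against 783 CPM). Macrophages also express it, and their summed markers were lower in UEIS KI in all 4 gates. In the Foxp3 gate, where these markers stood at 7484 against 13197 CPM, *Ctsc* was at 1007 against 1218 CPM and not called. The part of macrophage RNA was not tested. The medians of the list were -0.46, -0.15, 0.04 and 0.40 in the CD8, Foxp3, other Cd3-positive and Ncr1-positive gates, against -0.02, 0.03, 0.04 and -0.02 for all measured genes. Of 12 NK and cytotoxic receptors, 7 were measured in the CD8 gate, with *Klrd1* (149 against 327 CPM) and *Klrk1* (74.4 against 156 CPM) lower in UEIS KI and 0 higher. Of all genes measured there 4.09% were lower and 3.37% higher. Of 9 measured in the Ncr1-positive gate only *Klra4* was higher and 0 were lower, beside 4.31% and 7.61% of all measured genes. In the other Cd3-positive gate *Klrd1* and *Klrk1* were higher, 126 against 37.0 and 77.9 against 47.5 CPM. That is 2 of 5 measured, beside 6.18% of all measured genes.

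Among 14 cytokines and chemokines of activated lymphocytes, the chemokines *Ccl3* and *Ccl4*, which attract monocytes and T cells, were lower in UEIS KI in the Foxp3 gate (172 against 498 and 367 against 1211 CPM) and the other Cd3-positive gate (202 against 431 and 409 against 1223 CPM). *Ccl3* was also lower in the CD8 gate. Macrophages express both, and the summed macrophage level was lower in UEIS KI in all 4 gates. Neither gene was called in the Ncr1-positive gate, and the part of macrophage RNA was not tested. In the other Cd3-positive gate *Il17a*, the cytokine of type 17 T cells, was higher in UEIS KI, 452 against 93.7 CPM, as were *Il10*, *Tnfsf11* and *Cd40lg*, so 4 of the 11 measured were higher and 3 lower there, beside 6.18% and 3.88% of all measured genes. Of 19 regulators, *Tbx21* and *Eomes*, which drive *Ifng* and *Prf1* in textbook accounts, were measured in the Ncr1-positive gate alone and not called there. *Id2* was higher in the CD8 gate and *Zeb2* lower, 1 of 11 each, beside 3.37% and 4.09% of all measured genes. In the Ncr1-positive gate *Il2rb*, the interleukin 2 and 15 receptor chain, was higher at 430 against 240 CPM. *Nr4a1* was lower there at 232 against 442 CPM, again 1 of 11 each, beside 4.31% and 7.61% of all measured genes. *Nr4a1*, an early gene of receptor signalling, was higher in the other Cd3-positive gate, 808 against 458 CPM, with *Nr4a2* and *Il18r1*. There 3 of 16 were higher and 1 lower, beside 6.18% and 3.88% of all measured genes. Of 8 exhaustion genes *Pdcd1* (65.1 against 235 CPM) and *Lag3* were lower in the CD8 gate, 2 of 6 measured. The share of all measured genes lower there was 4.09%. In the Foxp3 gate *Pdcd1* and *Ctla4* were higher and *Entpd1* lower (20.2 against 77.7 CPM), of 7 measured. All measured genes of that gate were higher in 4.83% and lower in 4.15%. In the other Cd3-positive gate *Havcr2* was higher (49.7 against 27.7 CPM), 1 of 7, beside 6.18% of all measured genes.

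Some receptors of the secreted products were read as well. *Ifngr1*, the ligand-binding chain for interferon-gamma, stood at 464 to 558 CPM in the 4 gates of UEIS KI and 413 to 507 CPM in those of UEIS LSL, and at 216 and 265 CPM in C1q-positive barcodes, with no call in any gate. *Xcr1*, the receptor of Xcl1, had 15 UMIs in all barcodes outside the gates and the C1q-positive class in UEIS KI and 43 in UEIS LSL. *Ccr1*, a receptor of Ccl5, was lower in the Foxp3 gate (90.9 against 202 CPM) and the other Cd3-positive gate (111 against 172 CPM). The macrophage markers were lower in both of these gates as well, and their part was not tested.

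Genes with the most similar pattern were ranked by Pearson's r of log2(CPM + 10) over 12 levels, which are 6 kinds of barcode in 2 libraries and share the libraries and their depth. *Gzma* was nearest to *Eomes* (0.98), *Klrb1c* (0.97) and *Ncr1* (0.97), *Prf1* to *Klre1* (0.97), *Klrc1* (0.97) and *Gm36723* (0.96), and *Xcl1* to *Klrb1c* (0.96), *Klra7* (0.95) and *Eomes* (0.95). *Nkg7* was nearest to *Ctsw* (0.98), *Ms4a4b* (0.98) and *Tbx21* (0.97), and *Gzmk* to *Cd8b1* (0.92), *Cd8a* (0.91) and *Armc7* (0.91). *Gzmb* was nearest to *Pdcd1lg2* (0.96), *Nup210* (0.95) and *Pglyrp1* (0.95), and *Gzmc* to *Klra7* (0.93), *Car2* (0.92) and *Gm15427* (0.92). *Ccl5* was nearest to *Dusp2*, *Rpl34* and *Rpl37a* (0.96 each), and *Ifng* to *Mycbp2* (0.95), *Nrgn* (0.94) and *Eef1a1* (0.93). These are descriptions over few levels, chosen from all genes with at least 50 UMIs in the gates. *Ncr1*, *Cd8a* and *Cd8b1* also define the gates, so their levels over the 12 were set in part by the gating. *Gzmk* had only 10 UMIs in all of UEIS KI and 25 in UEIS LSL.

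Other marker lists differed in the Ncr1-positive gate as well. Neutrophil markers summed to 288 CPM in UEIS KI and 22.7 CPM in UEIS LSL, plasmacytoid dendritic cell markers to 172 and 3.25 CPM, and fibroblast markers to 12.9 and 520 CPM. All 6 NK markers were present in both, at 1070 and 900 CPM, while *Cd3e* was at 0 in both. The T cell list summed to 756 CPM in UEIS KI, with 6 of 8 genes seen, and 455 CPM in UEIS LSL, with 7 of 8, and T cell receptor complex UMIs came to 4.52 and 2.36 per barcode. In the CD8 gate mast cell markers summed to 9.30 and 233 CPM, and in the Foxp3 gate dendritic cell markers to 162 and 48.2 CPM, in UEIS KI and UEIS LSL. The part of these other cells in the results was not tested.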

How the data were processed

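The deposited files hold raw UMI counts per gene and cell barcode, 1 matrix per library, from the authors' Cell Ranger run, with no normalisation. Per the submitters' processing notes the version was 2.1.1 with the build mm10, while per the file headers it was 8.0.1, and the annotation is not given in the sources used here. Of 55357 gene identifiers 94.1% matched GENCODE vM21 (GRCm38). The members, gene lists and gates were chosen with earlier results of these data known. Named genes were the 9 members, up to 4 examples of each of 6 gene lists, and the 3 genes most like each member; further list genes are named because they were called, a choice made after their values were seen.

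Quality limits on barcodes were 500 UMIs, 200 genes and 10% mitochondrial UMIs. Those with the highest Scrublet scores (scanpy 1.11.5), 0.8% per 1000 barcodes, were removed, 758 in UEIS KI and 726 in UEIS LSL. Cells were gated by UMIs, with no clustering. UMI counts were summed per library and gate and scaled to the gate's total. Levels have exact Poisson intervals, shares exact Clopper-Pearson intervals and ratios exact conditional binomial intervals (scipy 1.17.1), and zeros were given a limit of 3 counts. For thinning, each barcode was sampled to 1000 UMIs and shallower barcodes were left out. PCR duplicates are removed by the UMIs, and the intervals cover counting error only. The calls were tried on simulated Poisson counts summed per gate, without unevenness between barcodes. That simulation cannot show how the calls behave where 1 barcode holds much of a sum. Promoters are from RefSeq (GRCm38.p6) and were aligned with Biopython 1.88. One listed receptor gene is not reported here.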

Additional observations from a re-analysis of the deposited data

Results flagged for a closer look

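The ratio of *Gzmc* went in opposite directions in 2 gates, with a log2 ratio of 2.02 in Ncr1-positive barcodes and -1.39 in other Cd3-positive barcodes. The second value rests on 1 barcode in each library, and both of those barcodes held *Ncr1* UMIs. Neither was counted in the first value. The ratio of *Ccl5* was 0.64 in the CD8 gate, against -0.60 in the Foxp3 gate and -0.69 in the Ncr1-positive gate. The CD8 value rests on 1 UEIS KI barcode with 130 of 290 UMIs. None of these differences between gates was tested, since each group held 1 library.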

How the results depend on the processing

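No paired analysis was possible because each group held 1 library. Counts of members called lower and higher moved with the settings, and so did the share of all measured genes called lower. Per barcode this share was 33, 32.8, 57.2 and 9.9% in the CD8, Foxp3, other Cd3-positive and Ncr1-positive gates. Per T cell receptor UMI it was 5.23, 9.7 and 25% in the 3 T cell gates. Without the 5 highest barcodes it was 19.1, 20, 10.8 and 10.9% in the 4 gates. In the CD8 gate, 1 lower and 2 higher became 2 and 0 with Cd3 at 1 UMI, in barcodes with little C1q RNA, at 1000 to 10000 UMIs, per barcode, per T cell receptor UMI, without the highest barcode, thinned, and with each barcode counted alike. They became 2 and 1 with called doublets kept, 3 and 0 without the 5 highest barcodes, 0 lower with 2 UMIs of CD8 genes, and 0 higher with a fold of 2. In the Foxp3 gate, 1 lower and 1 higher became 0 and 2 with Cd3 at 1 UMI. There were 2 lower with doublets kept, per barcode and per receptor UMI, 0 lower when thinned or with a fold of 2, and 0 higher without the highest or the 5 highest barcodes. In the other Cd3-positive gate, 2 lower and 0 higher became 1 and 4 with Cd3 at 1 UMI and 1 and 2 with barcodes alike. There were 4 lower per barcode and per receptor UMI, 1 lower without the highest barcode and thinned, and 1 higher with little C1q RNA and with a minimum of 10 UMIs. The 4 of 7 per barcode stood beside 57.2% of all measured genes. In the Ncr1-positive gate, 2 lower became 1 with little C1q RNA, without the highest or the 5 highest barcodes, thinned, and with a fold of 2, while the count of 3 higher stayed within 1.5 times. The ratios behind it moved, *Gzmb* between 0.23 (thinned, not called) and 2.14, *Gzmc* between 0.86 and 4.02, and *Prf1* between 0.71 and 1.79. Under the settings without a share given above, 3.12 to 8.57% of all measured genes were lower and 1.66 to 6.76% higher. These shares were not worked out for a fold of 2, other UMI minimums or barcodes counted alike.

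Of 256 ratios under an alternative, 166 lay within the main counting interval, 78 outside it and 12 changed the sign of a call. *Prf1* in the CD8 gate turned to -0.19 (doublets kept), -0.0053 (1000 to 10000 UMIs), -0.41 (without the 5 highest barcodes) and -0.10 (barcodes alike). *Ccl5* turned to -0.12 (little C1q RNA), -0.15 (1000 to 10000 UMIs), -0.12 (per barcode) and -1.58 (without the 5 highest) in the CD8 gate, to 1.04 in the Foxp3 gate with Cd3 at 1 UMI, and to 0.78 (thinned) and 0.51 (barcodes alike) in the Ncr1-positive gate. *Gzmc* in the other Cd3-positive gate turned to 0.060 with Cd3 at 1 UMI. The causes were not tested. A mitochondrial limit of 20% changed no gate. Leaving out 5 barcodes removes a larger part of the smaller UEIS KI gates. In the CD8 gate it moved the median of all measured genes to -0.56. The settings without the highest barcode, at 1000 to 10000 UMIs and with barcodes alike were chosen after seeing the data. The 19 UEIS KI barcodes of the CD8 gate limit what its shares can show.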
